A study of Mus musculus with 4 samples.

Results

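Collagens are secreted or membrane-bound proteins whose chains wind around one another in a helix, with glycine recurring at a fixed spacing along each chain. Fibrillar collagens form the cables of connective tissue, type IV collagens form the sheet-like network of basement membranes, and FACIT collagens (fibril-associated collagens with interrupted helices) sit on the surface of fibrils. In the testis, a basement membrane rich in type IV collagen lies under the spermatogonia and Sertoli cells of each seminiferous tubule, with peritubular myoid cells and interstitial connective tissue outside it. The collagen genes described here were the protein-coding rows of the deposited table whose symbol has the form Col, a number, a and a number. The rule found 44 genes among 31600 listed features, 18287 of them protein-coding.

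The study measured long RNA, depleted of ribosomal RNA, in mouse spermatogonial stem cells, which sustain sperm production in the testis. The differentiation group had 2 libraries and carried the word Differentiation in its genotype label, and the control group had 2 libraries labelled WT. The labels name spermatogonial stem cells as the cell type of all 4 libraries, and the sources used here do not give how differentiation was obtained, after what time or at what age of the animals. Nothing in the labels tells whether replicate libraries were separate cultures or animals, so p-values measure only the spread between these libraries, which may be technical.

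The authors deposited FPKM, which scales fragments to exon length and library depth. The steps of the FPKM values gave scales of 17769300 and 20364200 fragments in the differentiation libraries and 19459300 and 20646800 in the control libraries. Features with ribosomal-RNA-like sequence took 18.3% and 17.7% of the fragments in the differentiation libraries and 22.6% and 20.8% in the control libraries. Spermatocyte markers rose in 6 of 6 tested and undifferentiated spermatogonia markers fell in 6 of 6. In the limma fit described below, 29.6% of all features tested were called higher and 27.0% lower. Of the 6 genes in the germ cell list (Ddx4, Dazl, Mael, Sycp3, Dnd1 and Tex101), 5 rose and Dnd1 fell. Ddx4, an RNA helicase, had 124 and 126 FPKM in differentiation and 69.7 and 67.3 FPKM in control. Dnd1, an RNA-binding protein, had 3.24 and 2.65 FPKM in differentiation and 7.56 and 6.32 FPKM in control. Markers of somatic cells were also present in every library, as described beside the results below.

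The repeat that defines the family is visible in the coding sequences. The 3 stretches shown were chosen because they come from the most abundant fibrillar collagen, from a FACIT collagen that rose and from the most abundant basement membrane collagen. They were read 5′ to 3′ from GENCODE M21 transcripts, and capitals mark the glycine codons (GGN), which recur every 3 codons.
Col1a1 codons 168 to 191: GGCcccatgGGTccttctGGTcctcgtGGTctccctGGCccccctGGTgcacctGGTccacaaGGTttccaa
Col9a3 codons 177 to 200: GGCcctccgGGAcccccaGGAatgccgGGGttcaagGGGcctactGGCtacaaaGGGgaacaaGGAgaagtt
Col4a1 codons 151 to 174: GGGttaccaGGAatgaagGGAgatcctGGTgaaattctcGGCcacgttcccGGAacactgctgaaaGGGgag
The Col1a1 and Col9a3 stretches keep the glycine spacing throughout, while the Col4a1 stretch runs over the end of its longest uninterrupted repeat. Over the 44 coding sequences, the longest uninterrupted run of such triplets had a median of 338 triplets in the 11 fibrillar genes (range 216 to 344). It had a range of 39 to 66 triplets in the 6 type IV genes and of 32 to 113 in the 9 FACIT genes. The type IV genes instead had 22 to 27 separate runs of at least 5 triplets each.

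Collagen RNA was lower in the differentiation libraries than in the control libraries. The summed level of the 44 genes was 203 and 193 FPKM in differentiation, against 496 and 509.7 FPKM in control. The means were 198 ± 6.83 and 503 ± 9.40 FPKM (SD, n = 2 each), 2.54-fold lower in differentiation. The groups did not overlap, and the exact permutation test over the 4 libraries gave a two-sided p of 0.333, the smallest that 2 libraries against 2 allow. Recovered as fragments, the collagens took 0.146% and 0.140% of each differentiation library (26919 and 29288 fragments) and 0.382% and 0.399% of each control library (76031 and 82550 fragments). In bulk samples, fewer cells of a type and less RNA per cell cannot be told apart.

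Of the 44 genes, 34 had a mean of at least 0.5 FPKM over the 4 libraries and were tested with limma on log2(FPKM + 1) in 1 fit over 23138 features. At a Benjamini-Hochberg adjusted p under 0.05, 19 collagen genes were lower in differentiation, 7 were higher and 8 were not called. In the same fit 27.0% of all features tested were called lower and 29.6% higher, so the collagens held a larger share of lower calls and a smaller share of higher calls than the table as a whole. Among protein-coding features tested, 34.0% were lower and 32.5% higher. The median log2 fold change was -0.51 over the 34 collagen genes and 0.01 over all features tested. The authors' deposited table, whose test the sources used here do not name, called 25 of the 44 genes lower and 8 higher, against 20.3% and 22.0% of its 31600 features. Of the 44 genes, 26 had both differentiation values below both control values and 12 had both above. The groups of the other 6 overlapped. For the features tested the same counts came to 39.1% below and 40.9% above.

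**Figure D1:**
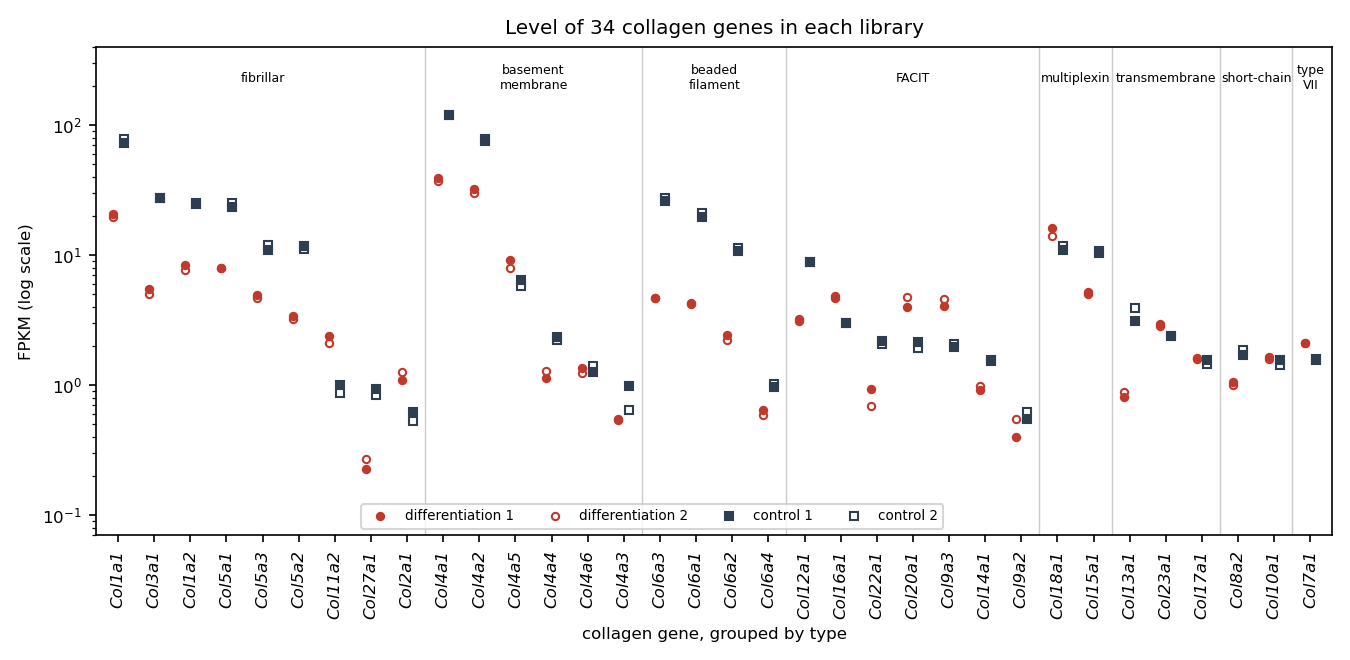
FPKM on a log10 axis for the 34 tested collagen genes, grouped by type along the horizontal axis, with 1 point per library (circles for differentiation, squares for control, filled and open for replicates 1 and 2). The highest points are Col4a1, Col4a2 and Col1a1, where the differentiation libraries sit at 39.4 and 37.3, 32.5 and 30.0, and 20.9 and 19.9 FPKM, below both control libraries of the same gene.

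The fibrillar collagens held the largest group of decreases, with 7 of 9 tested genes lower and 2 higher and a median log2 fold change of -1.51. The shares over all features tested were 27.0% lower and 29.6% higher. Their summed level was 53.8 ± 1.93 FPKM in differentiation and 179 ± 5.03 FPKM in control (SD, n = 2 each), 3.32-fold lower. Col3a1, the collagen of fine reticular fibres, had 5.55 and 5.06 FPKM in differentiation and 27.3 and 27.5 FPKM in control. It fell 5.17-fold (log2 fold change -2.17, SE 0.053, limma adjusted p = 1.19e-04). Col1a1 and Col1a2 encode the chains of type I collagen, the main fibril of skin, bone and tendon. Col1a1 (chr11:94936224-94953042, GRCm38) had 20.9 and 19.9 FPKM in differentiation and 73.0 and 78.5 FPKM in control (log2 fold change -1.84, SE 0.050, limma adjusted p = 1.40e-04). Col1a2 had 8.37 and 7.67 FPKM in differentiation and 25.3 and 25.0 FPKM in control, a log2 fold change of -1.54. The ratio of Col1a1 to Col1a2 FPKM was 2.50 and 2.59 in differentiation and 2.89 and 3.14 in control.

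Type V collagen, which is buried within type I fibrils and limits their width, fell in all 3 of its genes. Col5a1 had 7.97 FPKM in both differentiation libraries and 23.6 and 25.4 FPKM in control (log2 fold change -1.51). Col5a2 had 3.40 and 3.22 FPKM in differentiation and 11.7 and 11.2 FPKM in control (log2 fold change -1.53). Col5a3 had 4.97 and 4.69 FPKM in differentiation and 11.0 and 12.0 FPKM in control (log2 fold change -1.11). In each of the 3 genes the differentiation libraries lay close together and far below both control libraries. Both differentiation values lay below both control values in 39.1% of all features tested. Col27a1, a fibrillar collagen of cartilage, was low in all libraries, at 0.229 and 0.272 FPKM in differentiation and 0.943 and 0.844 FPKM in control (log2 fold change -0.60, limma adjusted p = 8.44e-03). Its FPKM ratio was 3.57-fold lower, more than the log2(FPKM + 1) scale shows for a gene at this level.

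The 2 fibrillar genes that rose are both known from cartilage. Col11a2, a chain of type XI collagen, had 2.41 and 2.13 FPKM in differentiation and 1.01 and 0.872 FPKM in control. It was 2.42-fold higher (log2 fold change 0.75, SE 0.106, limma adjusted p = 5.88e-03). Col2a1, the chain of the main cartilage fibril, had 1.10 and 1.27 FPKM in differentiation and 0.625 and 0.533 FPKM in control, 2.04-fold higher (log2 fold change 0.47, SE 0.104, limma adjusted p = 0.0215). These levels rest on few fragments: 295 and 298 in differentiation and 135 and 124 in control for Col11a2, and 180 and 239 in differentiation and 112 and 102 in control for Col2a1. The Col2a1 call was lost without differentiation replicate 2, control replicate 1 or control replicate 2, at limma adjusted p = 0.0726, 0.0680 and 0.0967. The partner chain gene Col11a1 was below the level filter, with 28 and 22 fragments in differentiation and 57 and 75 in control, and the ratio of Col11a2 to Col11a1 FPKM was 19.5 and 25.1 in differentiation and 4.39 and 3.06 in control.

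**Figure D2:**
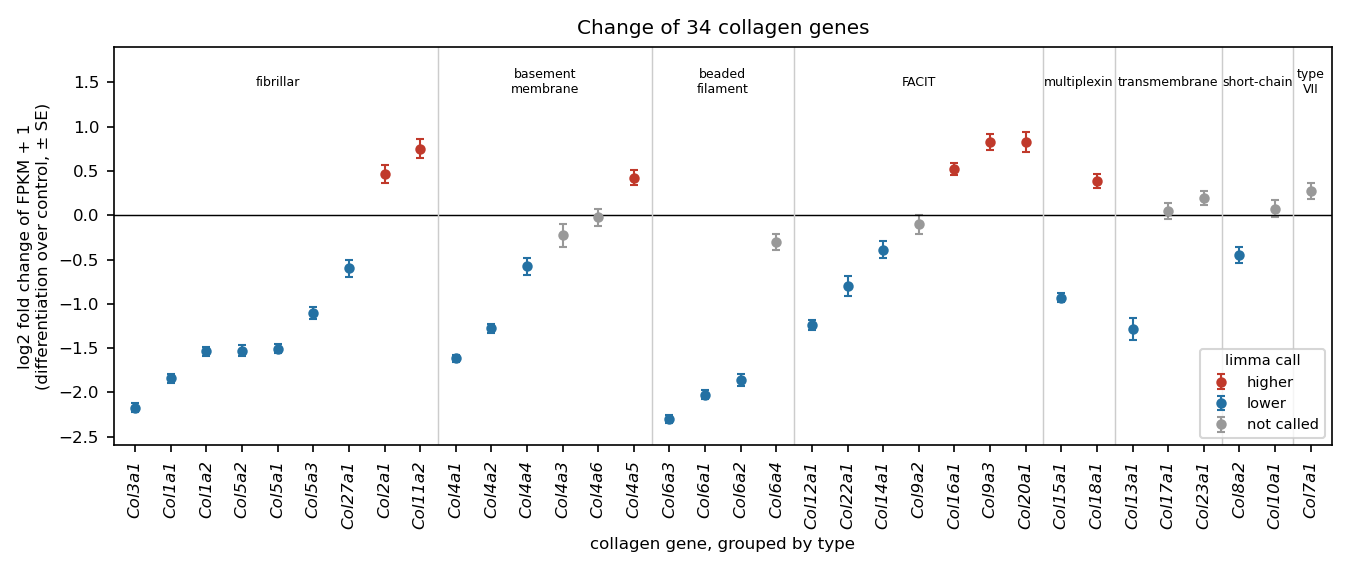
Log2 fold change of FPKM + 1 (differentiation over control) with its SE for the 34 tested collagen genes, grouped by type and coloured by limma call. Points run between -2.30 (Col6a3) and 0.83 (Col20a1), and the 7 higher genes fall in the fibrillar, basement membrane, FACIT and multiplexin groups.

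The beaded filament collagens of type VI, which form a fine microfibril network around cells, included the largest decrease of any tested collagen gene. Col6a3 (ENSMUSG00000048126, chr1:90765923-90843971, GRCm38) had 4.67 and 4.70 FPKM in differentiation and 26.3 and 27.8 FPKM in control. It fell 5.78-fold (log2 fold change -2.30, SE 0.045, limma adjusted p = 9.49e-05). The genes of its partner chains fell as well. Col6a1 had 4.30 and 4.19 FPKM in differentiation and 19.8 and 21.0 FPKM in control (log2 fold change -2.03). Col6a2 had 2.45 and 2.22 FPKM in differentiation and 10.8 and 11.4 FPKM in control (log2 fold change -1.86). All 3 genes were 4.74 to 5.78-fold below control. Their groups did not overlap, with differentiation below control, as in 39.1% of all features tested. The ratio of Col6a1 to Col6a2 FPKM was 1.75 and 1.89 in differentiation and 1.83 and 1.85 in control, so the groups overlapped in this ratio. Col6a4 had 0.647 and 0.593 FPKM in differentiation and 0.976 and 1.02 FPKM in control and was not called (limma adjusted p = 0.0524). Col6a5 and Col6a6 were below the filter. The summed level of type VI was 12.2 ± 0.299 FPKM in differentiation and 60.1 ± 2.37 FPKM in control (SD, n = 2 each), 4.93-fold lower.

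The basement membrane collagens were the most abundant type in both groups and split by gene. Col4a1 and Col4a2 encode the chains found in nearly every basement membrane. Col4a1 had 39.4 and 37.3 FPKM in differentiation and 119.6 and 119.8 FPKM in control (log2 fold change -1.62, SE 0.035, limma adjusted p = 1.06e-04). Col4a2 had 32.5 and 30.0 FPKM in differentiation and 76.1 and 78.2 FPKM in control (log2 fold change -1.28, SE 0.048, limma adjusted p = 2.22e-04). By FPKM among the 18287 protein-coding features, Col4a1 ranked 662 in differentiation and 81 in control, and Col4a2 ranked 958 in differentiation and 186 in control. The ratio of Col4a1 to Col4a2 FPKM was 1.21 and 1.24 in differentiation and 1.57 and 1.53 in control, lower in both differentiation libraries.

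Col4a3, Col4a4 and Col4a5 encode the chains of the mature glomerular basement membrane of the kidney and are the genes mutated in Alport syndrome. Col4a4 had 1.14 and 1.28 FPKM in differentiation and 2.36 and 2.23 FPKM in control and fell (log2 fold change -0.58, SE 0.096, limma adjusted p = 9.37e-03). That call was lost without differentiation replicate 1 or control replicate 1, at limma adjusted p = 0.0523 and 0.0554. Col4a3 had 0.548 and 0.542 FPKM in differentiation and 0.995 and 0.641 FPKM in control, with a wide gap between the control libraries, and was not called (limma adjusted p = 0.215). Col4a5 went the other way, with 9.12 and 8.03 FPKM in differentiation and 6.42 and 5.82 FPKM in control. It was 1.40-fold higher (log2 fold change 0.43, SE 0.085, limma adjusted p = 0.0157), and the call was lost without differentiation replicate 1 or control replicate 2, at limma adjusted p = 0.0738 and 0.0658. Its neighbour Col4a6, whose chain pairs with that of Col4a5 in smooth muscle basement membranes, had 1.37 and 1.24 FPKM in differentiation and 1.27 and 1.42 FPKM in control, and its groups overlapped. The ratio of Col4a1 to Col4a5 FPKM was 4.32 and 4.65 in differentiation and 18.6 and 20.6 in control.

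The 6 type IV genes lie head to head in 3 pairs, transcribed away from each other. Col4a1 (chr8:11198423-11312826, minus strand) and Col4a2 (chr8:11312805-11449287, plus strand) share 22 bases at their 5′ ends, and both fell. The starts of Col4a4 (chr1:82448423-82586849, minus strand) and Col4a3 (chr1:82586921-82722059, plus strand) are 71 bases apart in GENCODE M21 on GRCm38, and both genes had both differentiation values below both control values, with Col4a4 called lower and Col4a3 not called by limma on FPKM. The authors' deposited table and a limma-voom fit on recovered fragments called both lower. Differentiation values lay below control values without overlap in 39.1% of all features tested. Between the starts of Col4a6 (chrX:141165403-141474076, minus strand) and Col4a5 (chrX:141475385-141689234, plus strand) lie 1308 bases, and Col4a5 was called higher while Col4a6 was not called. Whether the members of a pair differed in their change was not tested.

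The sequences before the Col4a5 and Col4a6 starts and between Col4a4 and Col4a3 are shown because each pair shares its start region, together with those of Col3a1, the fibrillar gene that fell most, and Col11a2, the fibrillar gene that rose most. They are from RefSeq on GRCm38.p6, 5′ to 3′ on the gene's strand. Each holds the 250 bases before the gene's RefSeq start, cut at the GENCODE start for Col4a5 (216 bases), or the 71 bases between Col4a4 and Col4a3, read on the Col4a4 strand. The Col11a2 window ends 299 bases short of the start of that gene in GENCODE M21, where the annotations differ. Capitals mark, on either strand, matches to the box TATAAA, to the box known as CCAAT or to the Sp-family site GGGCGG.
Col3a1, chr1:45311288-45311537, plus strand: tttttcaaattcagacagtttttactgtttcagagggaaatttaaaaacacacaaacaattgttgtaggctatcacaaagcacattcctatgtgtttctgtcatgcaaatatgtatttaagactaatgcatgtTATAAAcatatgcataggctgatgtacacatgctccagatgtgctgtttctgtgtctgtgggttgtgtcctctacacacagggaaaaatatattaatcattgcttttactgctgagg
Col11a2, chr17:34038888-34039137, plus strand: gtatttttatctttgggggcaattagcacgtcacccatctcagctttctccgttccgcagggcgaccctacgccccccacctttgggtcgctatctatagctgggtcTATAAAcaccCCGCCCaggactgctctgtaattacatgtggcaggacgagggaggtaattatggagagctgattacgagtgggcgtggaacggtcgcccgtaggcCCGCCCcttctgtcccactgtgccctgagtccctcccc
Col4a5, chrX:141475169-141475384, plus strand: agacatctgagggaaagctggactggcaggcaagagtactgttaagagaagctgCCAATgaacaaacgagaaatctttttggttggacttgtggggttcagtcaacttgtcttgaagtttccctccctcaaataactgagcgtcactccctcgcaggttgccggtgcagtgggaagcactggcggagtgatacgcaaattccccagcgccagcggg
Col4a6, chrX:141474077-141474326, minus strand: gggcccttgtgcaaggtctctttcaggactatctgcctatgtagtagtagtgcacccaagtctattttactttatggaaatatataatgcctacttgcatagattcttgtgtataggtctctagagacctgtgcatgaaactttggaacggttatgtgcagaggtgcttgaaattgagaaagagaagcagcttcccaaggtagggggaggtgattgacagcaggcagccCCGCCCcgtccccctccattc
Col4a4-Col4a3 gap, chr1:82586850-82586920, minus strand: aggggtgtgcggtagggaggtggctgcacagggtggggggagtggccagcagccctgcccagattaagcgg
Col3a1 and Col11a2 both held a TATAAA match, although they moved in opposite directions. The RefSeq table held a promoter for 35 of the 44 genes and 32851 promoters in all. In the 250 bases before the RefSeq start, TATAAA matched in 14.3% of the collagen promoters and 12.4% of all promoters, CCAAT in 31.4% of the collagen and 33.8% of all promoters, and GGGCGG in 57.1% of the collagen and 32.7% of all promoters. By call, GGGCGG matched in 3 of 5 promoters of higher genes, 7 of 14 of lower genes and 5 of 7 of genes not called. A match says only that the letters are in the window.

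**Figure D3:**
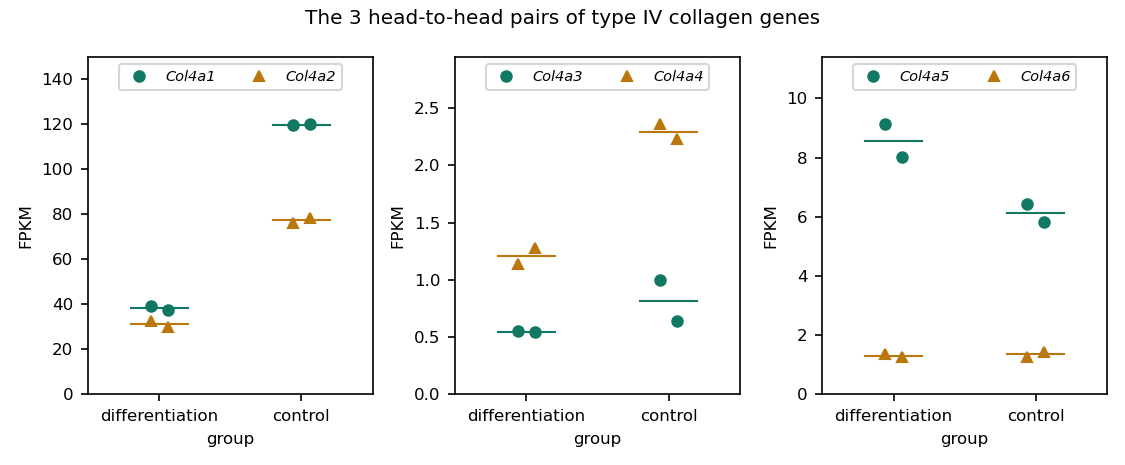
FPKM in each library (differentiation left of control, 1 point per library, a line at each group mean, axes from 0) for the 3 head-to-head pairs Col4a1 and Col4a2, Col4a3 and Col4a4, and Col4a5 and Col4a6. Col4a1, Col4a2, Col4a3 and Col4a4 are lower in both differentiation libraries than in both control libraries and Col4a5 is higher in both. The Col4a6 groups overlap, at 1.37 and 1.24 FPKM in differentiation and 1.27 and 1.42 FPKM in control.

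The FACIT collagens moved in both directions, with 3 of 7 tested genes higher and 3 lower. Calls in both directions were common in the fit, at 29.6% higher and 27.0% lower among all features tested. Their summed level was 19.1 ± 1.08 FPKM in differentiation and 20.3 ± 0.070 FPKM in control (SD, n = 2 each). Col12a1, which coats type I fibrils, had 3.21 and 3.15 FPKM in differentiation and 8.86 and 8.89 FPKM in control (log2 fold change -1.24, SE 0.055). Col22a1, known from tissue junctions such as that of muscle and tendon, had 0.929 and 0.699 FPKM in differentiation and 2.21 and 2.07 FPKM in control (log2 fold change -0.79, limma adjusted p = 6.10e-03). Col14a1, another fibril-surface collagen, had 0.915 and 0.987 FPKM in differentiation and 1.56 and 1.55 FPKM in control (log2 fold change -0.39, limma adjusted p = 0.0263). The Col14a1 call was lost without any 1 of the 4 libraries, at limma adjusted p between 0.0729 and 0.106.

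The FACIT genes that rose were Col20a1, Col9a3 and Col16a1. Col20a1 had 3.97 and 4.81 FPKM in differentiation and 2.14 and 1.92 FPKM in control, 2.16-fold higher (log2 fold change 0.83, SE 0.114, limma adjusted p = 5.52e-03). Col9a3, a chain of the type IX collagen that covers cartilage fibrils, had 4.07 and 4.64 FPKM in differentiation and 1.97 and 2.06 FPKM in control, also 2.16-fold higher (log2 fold change 0.83, SE 0.092, limma adjusted p = 3.13e-03). Col16a1, which is found at the edge of fibrils and near basement membranes, had 4.68 and 4.85 FPKM in differentiation and 3.00 FPKM in both control libraries, 1.59-fold higher (log2 fold change 0.53, SE 0.068, limma adjusted p = 4.67e-03). In each of the 3 genes both differentiation libraries lay above both control libraries, as in 40.9% of all features tested.

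The Col9a3 and Col20a1 values each touch a neighbour. Both genes lie on chromosome 2, with 364345 bases between the end of Col9a3 (chr2:180597790-180622189) and the start of Col20a1 (chr2:180986535-181018363). Col9a3 shares 234 exonic bases with Tcfl5, a transcription factor gene on the opposite strand, and the sources used here do not give whether counting used strand. Tcfl5 had 37.4 and 41.3 FPKM in differentiation and 13.2 and 14.0 FPKM in control (log2 fold change 1.47, SE 0.062, limma adjusted p = 2.88e-04). At the level of Tcfl5 the shared bases would hold 156 and 197 fragments in differentiation and 60.0 and 67.5 in control, where Col9a3 had 279 and 364 fragments in differentiation and 148 and 164 in control. The part of Tcfl5 reads in the Col9a3 value was not tested. Col20a1 shares 79 exonic bases with a feature that would place at most 7.16 fragments there in any library, against 363 and 504 fragments of Col20a1 in differentiation and 214 and 204 in control. In all, 10 of the 44 genes share exonic bases with another listed feature, and for Col4a3 such a feature would place 10.6 and 12.7 fragments in differentiation and 8.81 and 8.30 in control, against 97 and 110 fragments of Col4a3 in differentiation and 193 and 132 in control.

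The other type IX genes were low in every library. Col9a2 had 0.400 and 0.555 FPKM in differentiation and 0.548 and 0.626 FPKM in control, so its groups overlapped (limma adjusted p = 0.452). Col9a1 was below the filter, with 9 and 14 fragments in differentiation and 1 and 9 in control. The ratio of Col9a3 to Col9a2 FPKM was 10.2 and 8.35 in differentiation and 3.60 and 3.29 in control. Col19a1, the remaining FACIT gene, had between 7 and 9 fragments in every library.

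The multiplexins, collagens of the basement membrane zone with many interruptions in the helix, split as well. Col18a1, whose C-terminal fragment is endostatin, had 16.3 and 14.1 FPKM in differentiation and 11.0 and 11.7 FPKM in control, 1.33-fold higher (log2 fold change 0.38, SE 0.081, limma adjusted p = 0.0186). The call was lost without differentiation replicate 1, control replicate 1 or control replicate 2, at limma adjusted p = 0.0543, 0.0788 and 0.0519, and with quantile normalization, at 0.0504. Col15a1 had 5.19 and 5.004 FPKM in differentiation and 10.5 and 10.8 FPKM in control and fell (log2 fold change -0.93, SE 0.051, limma adjusted p = 5.07e-04). Col18a1 ranked 3018 in differentiation and 3861 in control among protein-coding features, and it was the most abundant of the 7 collagen genes that rose. The summed level of the 2 multiplexins was 20.3 ± 1.68 FPKM in differentiation and 22.0 ± 0.752 FPKM in control (SD, n = 2 each).

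Among the remaining types, 2 genes fell and none of the tested genes rose, beside 27.0% lower and 29.6% higher among all features tested. Col13a1, a transmembrane collagen of the neuromuscular junction, had 0.806 and 0.896 FPKM in differentiation and 3.12 and 3.90 FPKM in control, 4.13-fold lower (log2 fold change -1.28, SE 0.125, limma adjusted p = 2.16e-03). Col8a2, a short-chain collagen of the Descemet membrane of the cornea, had 1.07 and 1.01 FPKM in differentiation and 1.71 and 1.86 FPKM in control (log2 fold change -0.45, limma adjusted p = 0.0189). That call was lost without any 1 of the 4 libraries, at limma adjusted p between 0.0661 and 0.0917. Col7a1, the anchoring fibril collagen of skin, had 2.11 FPKM in both differentiation libraries and 1.56 and 1.59 FPKM in control and was not called (limma adjusted p = 0.0586). Col23a1, a transmembrane collagen, had 2.94 and 2.85 FPKM in differentiation and 2.38 and 2.41 FPKM in control (limma adjusted p = 0.0994). Col17a1, the hemidesmosome collagen, had 1.58 and 1.62 FPKM in differentiation and 1.57 and 1.47 FPKM in control. Col10a1, known from hypertrophic cartilage, had 1.65 and 1.58 FPKM in differentiation and 1.56 and 1.42 FPKM in control. Neither Col17a1 nor Col10a1 was called (limma adjusted p = 0.700 and 0.550).

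The 10 genes below the filter were Col19a1, Col9a1, Col28a1, Col6a5, Col6a6, Col11a1, Col24a1, Col26a1, Col8a1 and Col25a1. Their means over the 4 libraries were 0.0596 to 0.444 FPKM, with 1 to 175 fragments in a library. A limma-voom fit on recovered fragments, chosen after seeing the data, tested all 44 genes among 27156 features with at least 20 fragments over the 4 libraries. It called 26 collagen genes lower and 9 higher, against 29.6% and 28.9% of those features. Among the 10, it called Col25a1, Col26a1, Col11a1, Col6a6 and Col8a1 lower and none higher. Col25a1, a transmembrane collagen of neurons, had 47 and 59 fragments in differentiation and 175 in both control libraries (limma-voom adjusted p = 7.86e-08). Col26a1, set outside the other types, had 19 and 20 fragments in differentiation and 83 and 98 in control (limma-voom adjusted p = 1.60e-06). These values were named after they were seen. Of the genes not called on the FPKM scale, limma-voom called Col7a1 (adjusted p = 1.04e-03) and Col23a1 (adjusted p = 0.0476) higher and Col4a3 (adjusted p = 0.0112) and Col6a4 (adjusted p = 4.05e-04) lower.

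The make-up of the collagen RNA differed between the groups along with its amount. Fibrillar genes gave 27.2% of the summed collagen FPKM in each differentiation library, against 35.3% and 35.8% in control, and type VI genes gave 6.12% and 6.21% in differentiation, against 11.8% and 12.1% in control. The share of basement membrane genes was 41.5% and 40.7% in differentiation and 41.7% and 40.8% in control, so the groups overlapped there while the summed level was 2.55-fold lower. FACIT genes gave 9.06% and 10.3% in differentiation and 4.10% and 3.98% in control, and multiplexins gave 10.6% and 9.90% in differentiation and 4.33% and 4.43% in control. The 7 genes called higher together held 20.6% of the collagen FPKM in each differentiation library and 5.28% and 5.09% in control. Their summed level was 41.6 and 39.8 FPKM in differentiation and 26.2 and 25.9 FPKM in control, while that of the 19 genes called lower was 148 and 140.2 FPKM in differentiation and 456 and 470.0 FPKM in control. Both sums follow from the calls and are given as a description.

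**Figure D4:**
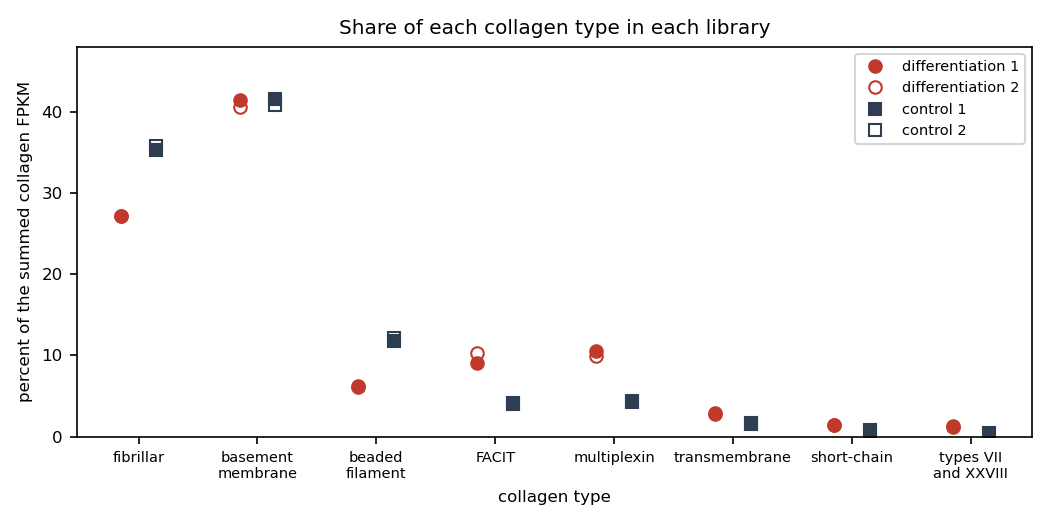
Percent of the summed collagen FPKM held by each collagen type in each library, with 1 point per library (axis from 0, differentiation left of control, filled and open points for replicates 1 and 2). Col26a1, outside these types, is not drawn. Fibrillar and beaded filament shares are smaller in differentiation, FACIT and multiplexin shares are larger, and the basement membrane share is 41.5% and 40.7% in differentiation against 41.7% and 40.8% in control.

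Most of the tested genes that process collagen chains fell too. Of 36 listed symbols, 35 were in the table and 32 were tested, of which 22 were lower and 3 higher (median log2 fold change -0.48). Over all features tested in the same fit, 27.0% were lower and 29.6% higher. Among 13 genes that hydroxylate or glycosylate the chains, 10 fell and none rose. P4hb, a subunit of prolyl hydroxylase and a general disulfide isomerase, had 117 and 118 FPKM in differentiation and 159 and 165 FPKM in control (log2 fold change -0.46). The lysyl hydroxylase Plod1 had 4.82 and 4.62 FPKM in differentiation and 9.12 and 9.24 FPKM in control (log2 fold change -0.83). Plod2, another lysyl hydroxylase, was not called, with 25.0 and 23.8 FPKM in differentiation and 23.0 and 24.2 FPKM in control.

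In the folding and export list, 4 of 7 tested genes fell and 2 rose, beside 27.0% lower and 29.6% higher among all features tested. Serpinh1, the collagen chaperone HSP47, had 29.1 and 27.2 FPKM in differentiation and 69.2 and 72.4 FPKM in control (log2 fold change -1.30, SE 0.046, limma adjusted p = 2.02e-04). Creb3l1, a transcription factor that raises collagen synthesis in bone, had 5.79 and 4.79 FPKM in differentiation and 16.5 and 17.1 FPKM in control (log2 fold change -1.50). Sec23a, a general component of the coat of secretory vesicles, rose, with 31.9 and 31.8 FPKM in differentiation and 15.5 FPKM in both control libraries (log2 fold change 0.99, limma adjusted p = 1.55e-04). In the list for propeptide removal and cross-linking, 8 of 12 tested genes fell and 1 rose. The cross-linking enzyme Lox had 10.1 and 9.21 FPKM in differentiation and 30.3 and 29.2 FPKM in control (log2 fold change -1.53). Its relative Loxl1 had 3.84 and 3.72 FPKM in differentiation and 14.3 and 13.4 FPKM in control (log2 fold change -1.63).

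Receptors and degrading enzymes fell in part, in short lists set beside 27.0% lower and 29.6% higher among all features tested. Of 7 tested collagen receptors, 4 fell and none rose by limma on FPKM. Limma-voom called Itga10 (adjusted p = 4.86e-03) and Gp6 (adjusted p = 5.28e-03), the latter below the level filter, higher. Ddr2, a receptor kinase for fibrillar collagen, had 4.26 and 4.07 FPKM in differentiation and 9.41 and 9.93 FPKM in control (log2 fold change -1.05). Itgb1, the shared beta chain of the collagen-binding integrins, had 64.4 and 62.3 FPKM in differentiation and 86.1 and 87.6 FPKM in control (log2 fold change -0.45). Of 5 tested collagen-degrading proteases, 3 fell and none rose. The gelatinase Mmp2 had 3.30 and 3.29 FPKM in differentiation and 11.1 and 9.31 FPKM in control (log2 fold change -1.38).

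Fibroblast and leukocyte markers fell with these genes, and the markers of other somatic cells were mixed. Of all features tested, 27.0% were lower and 29.6% higher. Of 12 fibroblast markers, 11 fell and 1 rose, with a summed level of 113 and 109 FPKM in differentiation and 259 and 266 FPKM in control. Vim had 62.6 and 57.7 FPKM in differentiation and 129 and 133 FPKM in control. Mgp had 3.98 and 4.88 FPKM in differentiation and 36.6 and 35.6 FPKM in control. Of 7 peritubular myoid markers, 3 fell and 1 rose, with a sum of 47.6 and 44.0 FPKM in differentiation and 97.0 and 90.4 FPKM in control. Acta2 and Tagln, both lower, made up most of that sum. Acta2 had 23.8 and 21.1 FPKM in differentiation and 58.0 and 53.7 FPKM in control. Tagln had 13.3 and 11.6 FPKM in differentiation and 27.3 and 25.3 FPKM in control. Actg2 rose, with 1.81 and 2.05 FPKM in differentiation and 0.990 and 0.964 FPKM in control. Limma-voom called Cnn1 (adjusted p = 0.0161) higher and Des (adjusted p = 0.0183) lower, neither called by limma on FPKM. Leukocyte markers fell in 5 of 6 tested, with a sum of 17.0 and 16.5 FPKM in differentiation and 60.7 and 57.6 FPKM in control. Endothelial markers fell in 2 of 5 tested, with a sum of 8.32 and 8.30 FPKM in differentiation and 14.4 and 13.8 FPKM in control that rests largely on Cdh5. Without Cdh5 the sum was 5.36 and 5.09 FPKM in differentiation and 6.29 and 5.63 FPKM in control. Pecam1 had 1.23 FPKM in both differentiation libraries and 1.05 and 1.15 FPKM in control and was not called. Limma-voom called Tie1 (adjusted p = 2.56e-04) and Vwf (adjusted p = 0.0103), both below the level filter, higher. Kdr, not called by limma on FPKM, was called lower by limma-voom (adjusted p = 3.02e-03). Leydig markers fell in 3 of 5 tested and rose in 1, with a sum of 25.1 and 24.3 FPKM in differentiation and 42.9 and 44.2 FPKM in control. Without Cyp11a1 that sum was 22.5 and 22.0 FPKM in differentiation and 26.1 and 27.8 FPKM in control. Hsd3b1 had 0.516 and 0.847 FPKM in differentiation and 9.22 and 10.4 FPKM in control, wider than the gap left in that sum. Star, the marker that rose, had 17.3 and 17.0 FPKM in differentiation and 9.89 and 10.1 FPKM in control. In these 5 lists the sums of both differentiation libraries lay below those of both control libraries. The part of these cells in the collagen decrease was not tested.

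Other marker lists did not follow the same direction. Of 9 tested Sertoli markers, 3 rose and 3 fell, beside 29.6% higher and 27.0% lower among all features tested. Sox9 was not called by limma on FPKM and was called lower by limma-voom (adjusted p = 2.36e-03). The sums of the Sertoli markers overlapped, at 169 and 157 FPKM in differentiation and 154 and 158 FPKM in control. Of 5 tested chondrocyte markers, 2 rose and 1 fell, with a sum of 8.44 and 8.28 FPKM in differentiation and 4.99 and 5.49 FPKM in control. Without Sox6 the sums overlapped, at 5.10 and 4.82 FPKM in differentiation and 4.67 and 5.15 FPKM in control. Sox6, a transcription factor of cartilage that is also used in other tissues, had 3.33 and 3.46 FPKM in differentiation and 0.322 and 0.349 FPKM in control (log2 fold change 1.72, limma adjusted p = 4.84e-04). Comp, the other marker that rose, had 2.86 and 2.73 FPKM in differentiation and 1.63 and 1.73 FPKM in control (log2 fold change 0.50, limma adjusted p = 0.0108). Acan, which encodes the cartilage proteoglycan aggrecan, fell, with 0.927 and 0.598 FPKM in differentiation and 1.62 and 1.56 FPKM in control. Sox5 was not called by limma on FPKM and Hapln1 was below the level filter, and limma-voom called both lower (adjusted p = 6.92e-05 for Sox5 and 1.34e-03 for Hapln1). The part of these cells in the higher values of Col2a1, Col9a3 and Col11a2 was not tested. No listed marker was at 0 in all 4 libraries.

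**Figure D5:**
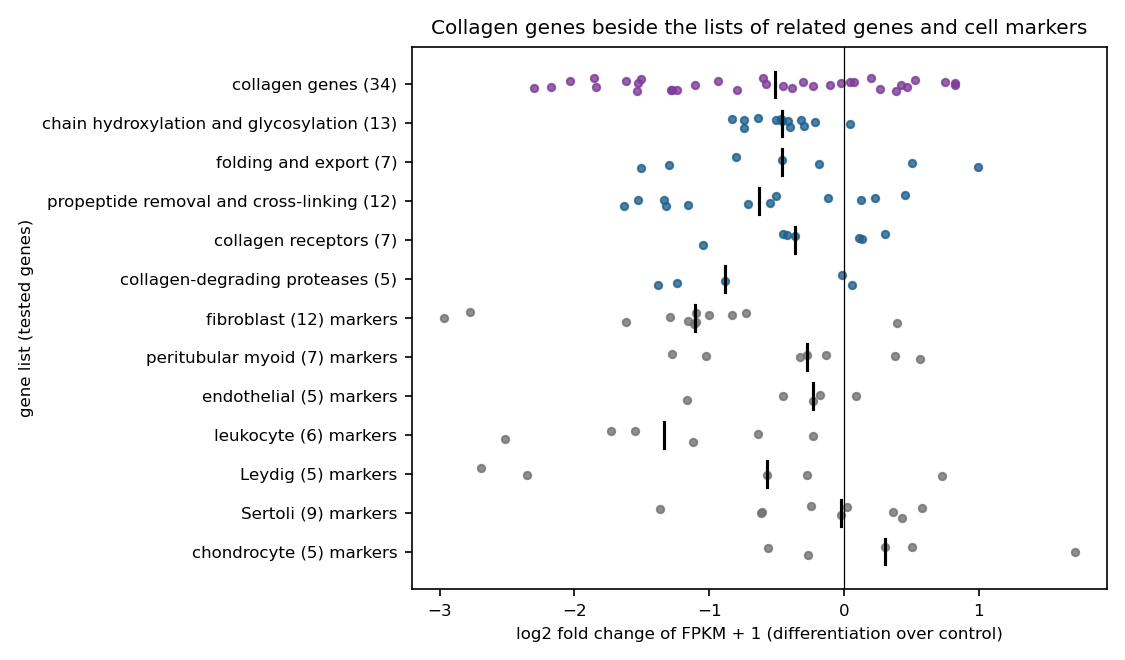
Log2 fold change of FPKM + 1 (differentiation over control) of each tested gene in the collagen list, the lists of synthesis genes, receptors and proteases, and the marker lists of somatic cell types, with 1 point per gene and a line at each list's median. The collagen median is -0.51, the fibroblast median -1.11, the leukocyte median -1.34, the Sertoli median -0.02 and the chondrocyte median 0.30.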

How the data were processed

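Per the labels' protocols, RNA came from a TRIzol extraction followed by removal of ribosomal RNA. HISAT2 and GRCm38 are named by the submitters' processing notes. The sources used here do not give the counting tool, the annotation or whether strand was used. The authors deposited FPKM per feature and library, with their own log2 fold change, p-value and adjusted p. Their deposited log2 fold change differed from the log2 ratio of group mean FPKM by a median of 0.00143, and their adjusted p matched the Benjamini-Hochberg value of their p-value within 1.44e-15.

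Groups followed the sample titles. The test was limma 3.58.1 (R 4.3.3), two-sided, on log2(FPKM + 1) with an intensity trend and no term besides group, for the 23138 features whose mean over the 4 libraries reached 0.5 FPKM, with 2 residual and 2.14 prior degrees of freedom. Fold changes are on that scale, where changes of low genes come out too small, and "-fold" values are ratios of mean FPKM. FPKM times the merged exon length in GENCODE M21 (matched for 31536 of 31600 identifiers) gave whole fragments within 0.05 for 96.2% of features under 300 fragments, and these were used with limma-voom as an alternative. A fragment need not be an independent molecule. Libraries of a group differed by 1.75 (differentiation) and 1.92 (control) times the Poisson variance and were treated as 2 replicates. The model was tested on simulated fragments in which few features were changed, while 56.6% were called in these data. It called 14.6% of features changed 1.5-fold, 30.4% changed 2-fold, 62.5% changed 4-fold and 58.7% changed 8-fold. Of unchanged features it called 0.0223%. A gene not called may thus still have changed. Promoters came from RefSeq (GRCm38.p6) and coding sequences from GENCODE M21.

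The members and lists were chosen with earlier results of these data known. Every collagen gene that passed the filter could be named. Of each other list, the 4 tested genes with the smallest p and the 2 most abundant could be named. Tcfl5 was named for its shared exons, and Dnd1, Pecam1, Tie1, Vwf, Cnn1, Des, Sox9, Hapln1, Itga10 and Gp6 after their values were seen. The lists include 4 symbols with no row in the table. Alternatives changed the pseudocount, low-value filter, library scaling or prior variance, added a replicate block, left out each library, or used limma-voom. Circular RNA was not analysed here. Other tools were numpy 2.4.6 and pandas 2.3.3 under Python 3.11.15, with matplotlib 3.10.9 for figures and scipy 1.17.1.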

Additional observations from a re-analysis of the deposited data

How the results depend on the processing

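Of the 26 collagen genes called, 20 (16 lower and 4 higher) kept their call under every alternative that tested them. The others, Col14a1, Col8a2, Col4a4, Col18a1, Col4a5 and Col2a1, lost it without 1 or more libraries. Leaving out each library in turn gave 4 to 6 collagen genes higher (4 without control replicate 2) and 16 to 17 lower. These fits leave 1 library in a group, which is assumed to vary like the other group, so a call kept in them is no sign of stability. With a replicate block the counts were 7 higher and 18 lower, with Col14a1 lost (limma adjusted p = 0.0603). Same-numbered libraries did not deviate together (correlation -0.000408), so the numbers were not taken as pairs. The collagen median log2 fold change moved from -0.51 to -0.80 with a pseudocount of 0.1 FPKM, -0.64 with 0.5 FPKM, -0.27 with no filter, -1.28 at a mean of at least 2 FPKM, -0.59 with quantile normalization or median centring and -0.55 without ribosomal-RNA-like and mitochondrial features. It was -0.88 with limma-voom and -0.85 with limma-voom on features of at least 20 fragments. Genes not called changed sign: Col10a1 to -0.0017 with quantile normalization and -0.0020 with median centring, Col17a1 to -0.029 with each, and Col4a6 to 0.017 without differentiation replicate 2 and 0.021 without control replicate 2 (lowest -0.069, without control replicate 1). The edgeR fit listed among the alternatives was not run, and limma-voom on recovered fragments was used in its place. The 10 collagen genes below the filter rest on 1 to 175 fragments in a library, and the fit on FPKM gave no test of them.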

Other observations

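The deposited table also held features that lie inside collagen genes, and those were set beside their hosts. Of all features tested, 27.0% were lower and 29.6% higher. Of 10 tested features inside 10 collagen genes, 6 were lower in differentiation (limma adjusted p under 0.05), 1 was higher and 3 were not called. The 6 lower ones, in Col4a1, Col4a2, Col1a2, Col5a1, Col5a2 and Col13a1, all lie in hosts that were called lower, and the higher one lies in Col4a5, which was called higher. Gm13372, a non-coding feature on the strand opposite to Col5a1, had 4.50 and 5.35 FPKM in differentiation and 15.7 and 15.6 FPKM in control (log2 fold change -1.49, SE 0.084, limma adjusted p = 5.35e-04). Gm15419, an antisense feature in Col4a2, had 4.77 and 4.76 FPKM in differentiation and 12.4 and 13.2 FPKM in control (log2 fold change -1.26, SE 0.054, limma adjusted p = 2.95e-04). Gm15268, a processed pseudogene on the strand of Col4a5, had 1.12 and 1.40 FPKM in differentiation and 0.146 and 0.413 FPKM in control (log2 fold change 0.82, SE 0.152, limma adjusted p = 0.0127). Gm15268 is short (chrX:141627959-141628468), so these low FPKM rest on few fragments. Without the strand setting of the counting, reads of a host and of a feature within it cannot be told apart where they overlap, and the part of host reads in these values was not tested. These features were named after their values were seen.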
